A study of Mus musculus with 16 samples.

Results

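The heat shock chaperone genes Hsp90aa1, Hsp90ab1, Hspa8, Hspa14, Hsph1, Dnaja1, Hspa5, Hspa9, Hspd1 and Hspe1 were followed through 16 libraries of single mouse haematopoietic progenitors. They are 10 of the 52542 gene rows of the count tables and were chosen by name as constitutively expressed or inducible members of the HSP90, HSP70, HSP110, HSP60, HSP10 and HSP40 families. By the place where the protein works, 6 belong to the cytosol, 1 to the endoplasmic reticulum and 3 to the mitochondrion. No threshold on a measured value entered the choice.

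The cells were LSK cells, that is, bone marrow cells without lineage markers that carry Sca1 and Kit, the fraction that holds blood stem cells and early multipotent progenitors. Per the labels, all mice were C57BL/6J. The hosts, CD45.1/CD45.2 animals, were lethally irradiated and given fetal liver cells, mixed 1:1, of CD45.1 control donors and of CD45.2 donors that were Regnase-1–/–Regnase-3–/–, and their LSK cells were sorted 4 weeks later. All 16 libraries therefore come from marrow of mice that received fetal cells of both genotypes together, and host cells that survived irradiation could add to them. No source used here gives the genotype of a library or well, or the age or number of the mice. The study asked about the loss of Regnase-1 and Regnase-3, which are RNases that degrade mRNAs of immune genes. Without genotypes that comparison was not made, and some libraries may hold cells of the same mouse. The comparisons below are between classes of cells within libraries and between the sequencing batches that the authors' well table names.

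Chaperones bind unfolded or partly folded proteins and release them in cycles driven by ATP. In the cytosol, HSP70 proteins (Hspa8) receive clients from HSP40 partners (Dnaja1), are reset by the HSP110 exchange factor (Hsph1), and hand some clients on to HSP90 (Hsp90aa1 and Hsp90ab1), which finishes the folding of many kinases and steroid receptors. BiP (Hspa5) does this work in the endoplasmic reticulum, and mortalin (Hspa9) with the HSP60 and HSP10 chaperonin (Hspd1 and Hspe1) does it in mitochondria. The heat shock factor HSF1 raises many of these genes under stress, and blood stem cells are known to depend on tight control of protein synthesis and folding.

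The libraries held 521435 to 822534 UMIs (unique molecular identifiers, each counting 1 captured mRNA molecule) and gave 295 to 345 kept cells each, 5157 in all. The median cell held 1146 to 1993 UMIs, depending on the library, and 9.43 to 12.1% of UMIs were mitochondrial. Kit and Ly6a (Sca1) had UMIs in all 16 libraries, at 129 to 210 and 133 to 283 counts per 1000000 UMIs (CPM). Zc3h12a and Zc3h12c, the genes of Regnase-1 and Regnase-3, lay at 1.57 to 17.4 and 2.55 to 15.5 CPM, and since no genotype is known for a library these levels check no label. Of the markers of other cells, Cd79a, Cd3e, Cd3d, Alas2, Ltf, Cdh5 and Lepr had no UMI in kept cells. Other genes of their lists did, and Itgam had 5.56 to 45.8 CPM. The mature B cell list held 40 UMIs (0 to 29.99 CPM) and the T and NK cell list 68 (1.57 to 18.06 CPM). The endothelial and stromal list held 146 UMIs (5.2 to 29.99 CPM). The mature neutrophil and macrophage list, led by Lyz2, summed to 120 to 242.5 CPM, and the erythroblast and platelet list to 0 to 176 CPM. The 60 wells listed as empty held 801 UMIs, of which 3 belonged to the chaperone genes. No well name was shared between libraries. The libraries are numbered 1 to 16 in accession order. The well table puts libraries 2 to 10 in sequencing batch SB341 and 11 to 16 in SB343, and it does not list library 1.

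Hsp90ab1 had the highest row of the 10 genes in every library, before reads on copies were added. This constitutive HSP90 isoform lies on GRCm38 chr17:45567775-45573271, minus strand. Its level was lowest at 1234 CPM, with a median of 1908 CPM and a highest value of 2289 CPM over the 16 libraries. Hsp90aa1, the stress-responsive HSP90 isoform at chr12:110690605-110702728, minus strand, stood between 506 and 981 CPM with a median of 709 CPM. The libraries did not overlap between the 2 isoforms: the highest Hsp90aa1 value was below the lowest of Hsp90ab1. Because MARS-seq counts 1 tag near the 3′ end of each mRNA, these levels were not divided by gene length. Hsp90aa1 made up 23.0 to 35.6% of the UMIs of both isoforms, with a median of 27.3%.

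The rows of the other cytosolic genes were lower, before copies were added. Hspa8, the constitutive HSC70, lies at chr9:40800984-40810087, plus strand, and varied most of the 10 genes, from 140 CPM through a median of 351 CPM to 754 CPM. Its highest library was 5.39 times its lowest, a ratio that ranks 92 among the 1523 genes with a median of at least 100 CPM over libraries. The HSP40 gene Dnaja1 (chr4:40722150-40737149, plus strand) had a lowest value of 142, a median of 220 and a highest value of 253 CPM. Hsph1 (chr5:149614287-149636376, minus strand) and Hspa14 (chr2:3488850-3512814, minus strand), which encodes a ribosome-associated HSP70, had the lowest levels, with medians of 86.5 and 81.9 CPM and ranges of 53.4 to 125 and 56.0 to 105 CPM. For Hsph1 the coefficient of variation over libraries was 23.2%, against 13.7% from counting alone, and for Hspa14 it was 17.7%.

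The Hspa8 row does not hold all UMIs that its sequence could give. The tables hold 10 rows of near-identical copies of the last 400 bases of Hspa8 (at least 90% identity over at least 100 bases), annotated apart from it. The 3 with most UMIs, all processed pseudogenes, are shown because they share bases near the 3′ end, where the tags are read. Each line gives 60 coding bases of the last Hspa8 exon, chr9:40804978-40805037 on the plus strand, or the matching bases of a copy, read from GENCODE vM21 transcripts (GRCm38). The others lie at chr5:5781695-5781754, minus strand (Gm15459), chr6:75296199-75296258, minus strand (Gm6210), and chr1:47659490-47659549, plus strand (Gm8337). Capitals mark bases that are not those of Hspa8.
Hspa8: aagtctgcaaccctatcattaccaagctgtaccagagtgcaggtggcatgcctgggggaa
Gm15459: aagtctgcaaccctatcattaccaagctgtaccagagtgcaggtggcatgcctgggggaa
Gm6210: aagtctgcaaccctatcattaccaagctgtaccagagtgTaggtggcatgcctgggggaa
Gm8337: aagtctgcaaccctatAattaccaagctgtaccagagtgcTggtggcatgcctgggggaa
Gm15459 had no mismatch to Hspa8 over the last 300 coding bases, so no read from this stretch can be told apart by its letters. Gm6210 had 2 mismatches over these 300 bases, and Gm8337 59 when no gap was allowed (96.0% identity in an alignment of 349 bases that allows gaps).

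The 10 copy rows together held 8035 UMIs, 64.5% of the sum with the 4415 UMIs of Hspa8 itself. Most of them, 6278 UMIs, were in Gm15459, with 900 in Gm8337 and 536 in Gm6210. The copies and Hspa8 ran opposite ways over the libraries. In batch SB341 the Hspa8 row stood at 140 to 428 CPM and the copies at 844 to 1126 CPM, while in batch SB343 Hspa8 stood at 583 to 754 CPM and the copies at 319 to 475 CPM. Their sum was far steadier, 1161 to 1435 CPM in SB341 and 987 to 1198 CPM in SB343. The coefficient of variation over 16 libraries was 54.5% for the Hspa8 row and 9.38% for the sum. With copies counted for each gene, Hspa8 stood above Hsp90aa1 in 15 of 16 libraries and above Hsp90ab1 in 2, libraries 2 and 10.

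**Figure D1:**
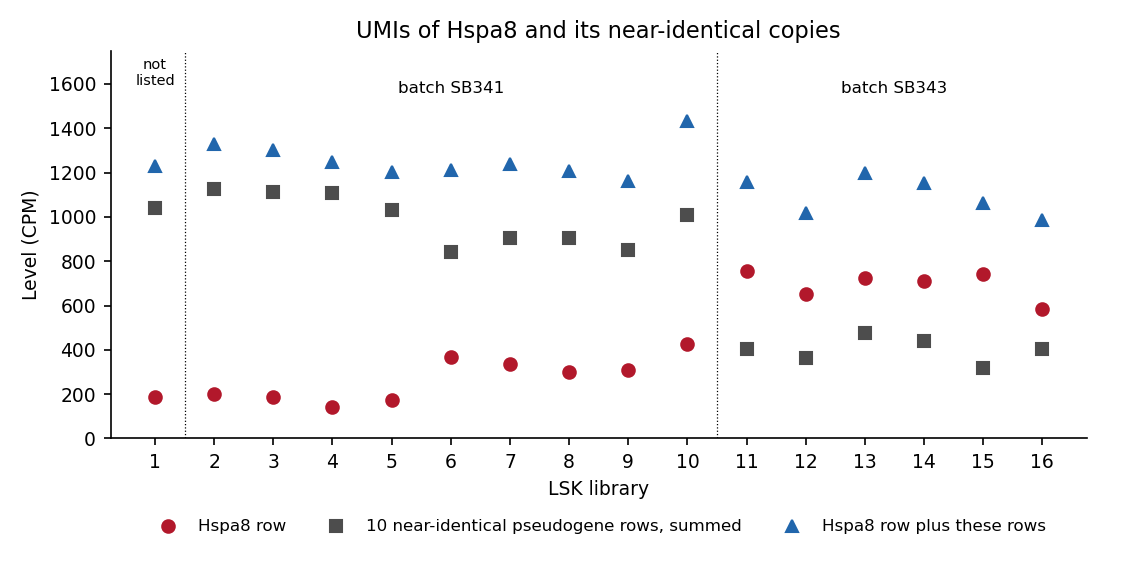
Level (CPM, linear axis from 0) of the Hspa8 row, of its 10 near-identical copy rows summed, and of both together, in each of the 16 LSK libraries, with the batches of the well table marked. The Hspa8 row lies at or below 428 CPM in SB341 and at or above 583 CPM in SB343, the copies do the reverse, and the sum stays between 987 and 1435 CPM.

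A further row lies inside the gene. Snord14d, a small nucleolar RNA gene in an Hspa8 intron (chr9:40803995-40804080, plus strand), held 17579 UMIs, with 1057, 1710 and 2019 CPM as its lowest, median and highest library. This is above the Hspa8 row in all 16 libraries. The sister genes Snord14c and Snord14e, also inside Hspa8, held 18 and 3 UMIs. MARS-seq captures poly(A) RNA, and no source used here says how the authors' counting placed a tag between a host gene and a gene inside it. The origin of these UMIs was not tested. Hspa8, its copies and the small RNA genes inside it together gave 2122, 2950 and 3453 CPM as the lowest, median and highest library. How much of this sum is Hspa8 mRNA cannot be told apart.

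Copies mattered less for the other genes. They held 17.9% of the UMIs of Dnaja1 and its copies (3 copy rows, 475 UMIs), 11.9% for Hspd1 (289 UMIs), 11.5% for Hsp90aa1 (2 copy rows, 969 UMIs), 4.47% for Hsp90ab1 (933 UMIs) and 0.156% for Hspe1 (7 UMIs). Hspa5, Hspa9, Hspa14 and Hsph1 had no copy at this identity. The 3′ end of Dnaja1 also overlaps Smu1 on the opposite strand, and no source used here says whether the authors' counting used strand.

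Hspa5, which encodes BiP (chr2:34771970-34777547, plus strand), was the only member of the endoplasmic reticulum. Its lowest, median and highest library stood at 308, 385 and 546 CPM. Of the mitochondrial genes, Hspe1 (HSP10, chr1:55088132-55091307, plus strand) was highest, at 358, 423 and 535 CPM, and it was among the steadiest of the abundant genes, ranking 1304 of 1523 by the ratio of highest to lowest library. Hspd1 (HSP60, chr1:55077835-55088243, minus strand) had 143, 191 and 289 CPM. Hspa9 (mortalin) had 172, 196 and 228 CPM, a ratio of 1.33 that ranks 1482 of 1523. The coefficient of variation of Hspa9 was 8.33%, against 8.98% from counting alone, so its libraries differed no more than counting would give.

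Hspd1 and Hspe1 are neighbours whose 5′ ends overlap head to head, and their proteins form 1 chaperonin. The UMIs of Hspe1 nonetheless exceeded those of Hspd1 in every library, by 1.47 to 3.12 times with a median of 2.13. Stretches of the promoter windows of Hspe1, Hsph1 and Hspa5, which held a known stress element, are shown. The windows run from 250 bases before to 50 after the start of 27025 genes (RefSeq, GRCm38.p6), of which 6 are members. Capitals mark the element, and each stretch is given on the strand of the gene named.
Hspe1, chr1:55088053-55088082, plus strand: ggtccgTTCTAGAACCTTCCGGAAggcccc
Hsph1, chr5:149636287-149636316, minus strand: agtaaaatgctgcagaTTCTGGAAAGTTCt
Hspa5, chr2:34772020-34772049, plus strand: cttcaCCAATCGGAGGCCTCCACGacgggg
The heat shock element, the site of HSF1, was searched as TTCNNGAANNTTC or GAANNTTCNNGAA on both strands, and matches were allowed to overlap. It was present in 179 of the 27025 windows (0.662%) and in 3 of the 6 members, Hspe1, Hspd1 and Hsph1. Where the match lies in Hspd1 is not given here. In Hspe1 the matched bases ran from -89 to -72 relative to the start, and in Hsph1 from 36 to 48. The endoplasmic reticulum stress element, searched as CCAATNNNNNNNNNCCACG on both strands, was present in 37 windows (0.137%), among them Hspa5 at -65 to -47. Hspa14 and Dnaja1 held neither. Positions count from the RefSeq start of a window, which differs from the end of the gene span given above, taken from GENCODE. The Hspa5 stretch shown lies inside that gene span. A match is a description of letters and says nothing of binding in these cells.

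**Figure D2:**
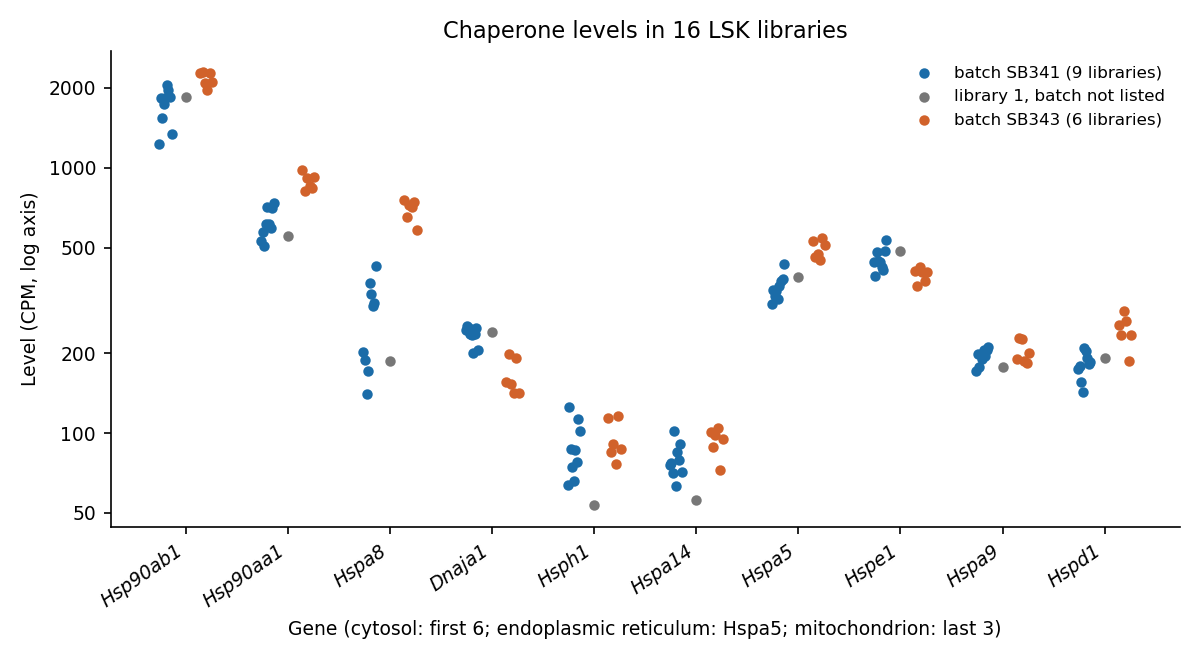
Level (CPM, log axis) of each of the 10 chaperone genes, 1 point per library, coloured by the sequencing batch of the well table. Hsp90ab1 lies highest (1234 to 2289 CPM), and Hspa14 and Hsph1 lowest. Without copies, points of SB343 lie above those of SB341 for Hspa8, Hsp90aa1 and Hspa5 and below them for Dnaja1. How many of all genes separate in this way was not counted. With copies added, the batches overlap for Hspa8.

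The batches were compared after these levels had been seen, with each library as a replicate, although some may hold cells of the same mouse. The p-values below measure spread over libraries, which may not be spread over mice. In edgeR's quasi-likelihood test on the sums of all kept cells, 5 of the 10 genes differed between batches at a Benjamini-Hochberg adjusted p under 0.05, where 12.6% of 8017 genes did. Hspa8 was higher in SB343 by a log2 fold change of 1.28 (SE 0.17, adjusted p = 1.16e-06). Hsp90aa1, at 506 to 740 CPM in SB341 and 820 to 981 CPM in SB343, was higher by 0.44 (SE 0.09, adjusted p = 0.000762, edgeR). Hspa5, at 308 to 433 and 449 to 546 CPM, was higher by 0.40 (SE 0.09, adjusted p = 0.00179, edgeR). Dnaja1 went the other way, from 200 to 253 CPM in SB341 to 142 to 199 CPM in SB343, a log2 fold change of -0.59 (SE 0.10, adjusted p = 0.000101, edgeR). Hspd1 was higher by 0.35 (adjusted p = 0.0233, edgeR), but not without library 11, 13 or 14 (adjusted p up to 0.0687). The other 5 genes did not pass: Hspe1 had -0.26 (adjusted p = 0.0517), Hsp90ab1 0.26 (adjusted p = 0.0726), and Hspa14, Hspa9 and Hsph1 lay between -0.03 and 0.15. The ratio of Hspe1 to Hspd1 was 2.06 to 3.12 in SB341 and 1.47 to 2.01 in SB343, without overlap, but with copies added these were 1.77 to 2.53 and 1.38 to 1.91, which overlap.

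With the copies added to each gene, the direction of Hspa8 turned. The log2 fold change became -0.28 (SE 0.08, adjusted p = 0.0148, edgeR), and 6 of 10 genes were called where 12.5% of 8009 were. With the small RNA genes inside as well, it was -0.33 (SE 0.08, adjusted p = 0.0026, edgeR), and Snord14d alone had -0.36 (adjusted p = 0.00441). The copy rows did not move together: Gm15459 had -2.08, Gm6210 -1.61 and the Dnaja1 copy Gm7816 -2.22, while Gm8337 had 1.12 and the Hsp90ab1 copy Gm6368 1.43. Among the 169 tested rows named as pseudogenes by -ps in the symbol, 57.4% were called, 25 higher and 72 lower in SB343. With copies Dnaja1 (-0.67, adjusted p = 9.77e-06, edgeR) and Hsp90aa1 (0.31, adjusted p = 0.00899, edgeR) kept their calls, Hsp90ab1 passed at 0.32 (adjusted p = 0.0241) and Hspe1 at -0.27 (adjusted p = 0.0495), and Hspd1 no longer did (0.22, adjusted p = 0.18).

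Cell composition moved with the batch too. Cells gated as granule-forming, as described next, made up 5.71 to 22.7% of a library in SB341 and 21.3 to 35.8% in SB343, and lymphoid-gated cells 8.66 to 23.2% and 6.16 to 9.49%. The share of megakaryocyte and erythroid-gated cells, in which Hsp90aa1 and Hspa5 were highest, did not overlap, at 2.75 to 5.33% and 6.09 to 9.80%. Within single classes the batch difference of Hspa8 was 1.12 (granule) to 1.52 (HSC) and passed the test in each of the 4 classes and the cells in no class, and with copies added it was -0.29 to -0.07 and passed in 1 of these 5. Hsp90aa1 differed by 0.35 to 0.91 within classes and passed in 4 of 5 (highest adjusted p = 0.0876, edgeR), but with copies added by 0.23 to 0.66, passing in 2 of 5 (highest adjusted p = 0.339). Hspa5 differed by 0.25 to 0.59 and passed in 1 of 5, Dnaja1 by -0.90 to -0.32 in 2 of the 4 classes tested, and Hspd1 by 0.11 to 0.77 in 1 of 4 (highest adjusted p 0.38, 0.257 and 0.754, edgeR). Batch, mice and all else that separates these libraries cannot be told apart.

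Cells were next compared by class within libraries. A cell entered a class when it held UMIs of at least 2 of the 8 genes of that class and of more than of any other class. The HSC class used Mecom, Procr, Hlf, Pdzk1ip1, Fgd5, Slamf1, Mllt3 and Ctnnal1, and the granule class Mpo, Ctsg, Prtn3, Elane, Ms4a3, Ly6c2, Cebpe and Fcgr3, made by progenitors of neutrophils and monocytes. The lymphoid class used Dntt, Il7r, Rag1, Rag2, Ighm, Notch1, Il12a and Blnk, and the megakaryocyte and erythroid class Gata1, Car1, Pf4, Itga2b, Klf1, Epor, Apoe and Gp9. There were 231, 990, 627 and 271 such cells, and 3038 cells fell in no class. Libraries with at least 10 cells of a class numbered 12, 16, 16 and 15. None of the chaperone genes served as a marker. Hspa14 and Hsph1 were too low to be tested between classes, so 8 members were, among 1491 genes. The p-values measure only the spread of class differences over libraries, which may be technical where libraries share mice. They are also smaller than they should be, by an amount that is not known, since cells were placed by their own expression.

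Hsp90aa1 was highest in megakaryocyte and erythroid-gated cells. Its lowest, median and highest library stood at 371, 906 and 1472 CPM there, at 435, 714 and 967 CPM in granule-gated cells, at 457, 598 and 943 CPM in lymphoid-gated cells and at 405, 557 and 1336 CPM in HSC-gated cells. The ranges overlap between all classes, and within most libraries megakaryocyte and erythroid-gated cells stood above each other class. Against lymphoid-gated cells Hsp90aa1 was higher in 14 of 15 libraries, with a log2 fold change of 0.52 (SE 0.09, adjusted p = 8.12e-07, edgeR). Against granule-gated cells it was higher in 13 of 15 by 0.41 (SE 0.08, adjusted p = 2.12e-05, edgeR), and against HSC-gated cells in 10 of 11 by 0.44 (SE 0.12, adjusted p = 0.00452, edgeR). All 3 calls held without each library in turn. Within batch SB343 the differences were 0.63 (adjusted p = 5.19e-05) from lymphoid-gated, 0.42 (adjusted p = 0.000845) from granule-gated and 0.32 (adjusted p = 0.493, 3 libraries) from HSC-gated cells. Within SB341 they were 0.38 (adjusted p = 0.0436), 0.30 (adjusted p = 0.175) and 0.41 (adjusted p = 0.124, edgeR in all 6). Hsp90aa1 did not pass between the other 3 classes, and lymphoid-gated cells were above HSC-gated cells in 6 of 12 libraries.

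Hspe1, the HSP10 gene, was lower in HSC-gated cells than in 2 other classes within libraries, although the ranges overlapped. It stood at 154, 304 and 411 CPM (lowest, median, highest) in HSC-gated, 162, 382 and 551 CPM in lymphoid-gated, 304, 458 and 640 CPM in granule-gated, and 358, 570 and 765 CPM in megakaryocyte and erythroid-gated cells. It was higher in megakaryocyte and erythroid-gated than in HSC-gated cells in 11 of 11 libraries, by 0.84 (SE 0.15, adjusted p = 1.87e-05, edgeR). It was higher in granule-gated than in HSC-gated cells in 12 of 12 libraries, by 0.56 (SE 0.14, adjusted p = 0.00557, edgeR). The same gene was higher in megakaryocyte and erythroid-gated than in lymphoid-gated cells in 14 of 15, by 0.56 (SE 0.11, adjusted p = 3.51e-05, edgeR). These 3 calls held without each library in turn. Within SB341 alone the same differences were 0.74 (adjusted p = 0.0126), 0.53 (adjusted p = 0.0789) and 0.56 (adjusted p = 0.00857), and within SB343 alone 1.04 (adjusted p = 0.0686), 0.68 (adjusted p = 0.473) and 0.64 (adjusted p = 0.012, edgeR in all 6). Against granule-gated cells the difference was 0.29 (SE 0.10, adjusted p = 0.0376, edgeR), a call that was lost in 10 of 16 fits without a library (without 1, 5, 7, 9 or any of 11 to 16, adjusted p up to 0.172).

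Its partner Hspd1 followed with wider errors. The HSP60 gene had 0, 158 and 288 CPM in HSC-gated cells, with 0 UMIs in its lowest library, and 88.5, 252 and 562 CPM in megakaryocyte and erythroid-gated cells. The difference was 0.82 (SE 0.24, adjusted p = 0.0118, edgeR), higher in 8 of 11 libraries, and it did not pass without library 1 (adjusted p = 0.0667). Hspd1 stood at 116, 201 and 322 CPM in lymphoid-gated cells, below megakaryocyte and erythroid-gated cells by 0.44 (SE 0.17, adjusted p = 0.0465, edgeR). That difference had the same sign in only 8 of 15 libraries and was not called in 10 of 16 fits without a library (1, 2, 5 or any of 9 to 15, adjusted p up to 0.253). Hspa9, the mitochondrial HSP70 gene at chr18:34937414-34954357, minus strand, stood at 146, 233 and 469 CPM in megakaryocyte and erythroid-gated and 145, 189 and 263 CPM in granule-gated cells. It was higher by 0.42 (SE 0.15, adjusted p = 0.0376, edgeR) in 12 of 15 libraries, and not called without library 6, 9, 10, 11, 12, 14 or 15 (adjusted p up to 0.164). None of these 3 differences passed within a single batch: within SB341 and SB343 they were 0.48 and 0.70, 0.06 and 0.44, and, for Hspa9, 0.59 and 0.30.

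BiP RNA was also highest in megakaryocyte and erythroid-gated cells. Hspa5 stood at 310, 571 and 885 CPM there, at 340, 470 and 583 CPM in granule-gated, 229, 372 and 512 CPM in lymphoid-gated and 35.5, 354 and 576 CPM in HSC-gated cells. Its lowest HSC value rests on 1 UMI. Megakaryocyte and erythroid-gated cells exceeded HSC-gated cells in 10 of 11 libraries by 0.69 (SE 0.16, adjusted p = 0.000911, edgeR) and lymphoid-gated cells in 12 of 15 by 0.59 (SE 0.12, adjusted p = 3.05e-05, edgeR). Both calls held without each library in turn. The differences were 0.53 (adjusted p = 0.183) and 0.44 (adjusted p = 0.118) within SB341 alone, and 0.68 (adjusted p = 0.18) and 0.70 (adjusted p = 0.000978, edgeR in all 4) within SB343 alone. Granule-gated cells came next, and their difference to megakaryocyte and erythroid-gated cells was 0.27 (adjusted p = 0.0641, edgeR) and to HSC-gated cells 0.42 (adjusted p = 0.0708, edgeR). Lymphoid-gated cells were lower than granule-gated cells in 13 of 16 libraries, by -0.32 (SE 0.10, adjusted p = 0.0311, edgeR), which did not hold without library 2, 5, 7, 10, 11, 15 or 16 (adjusted p up to 0.112). It was -0.32 within SB341 and -0.38 within SB343, not called in either.

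**Figure D3:**
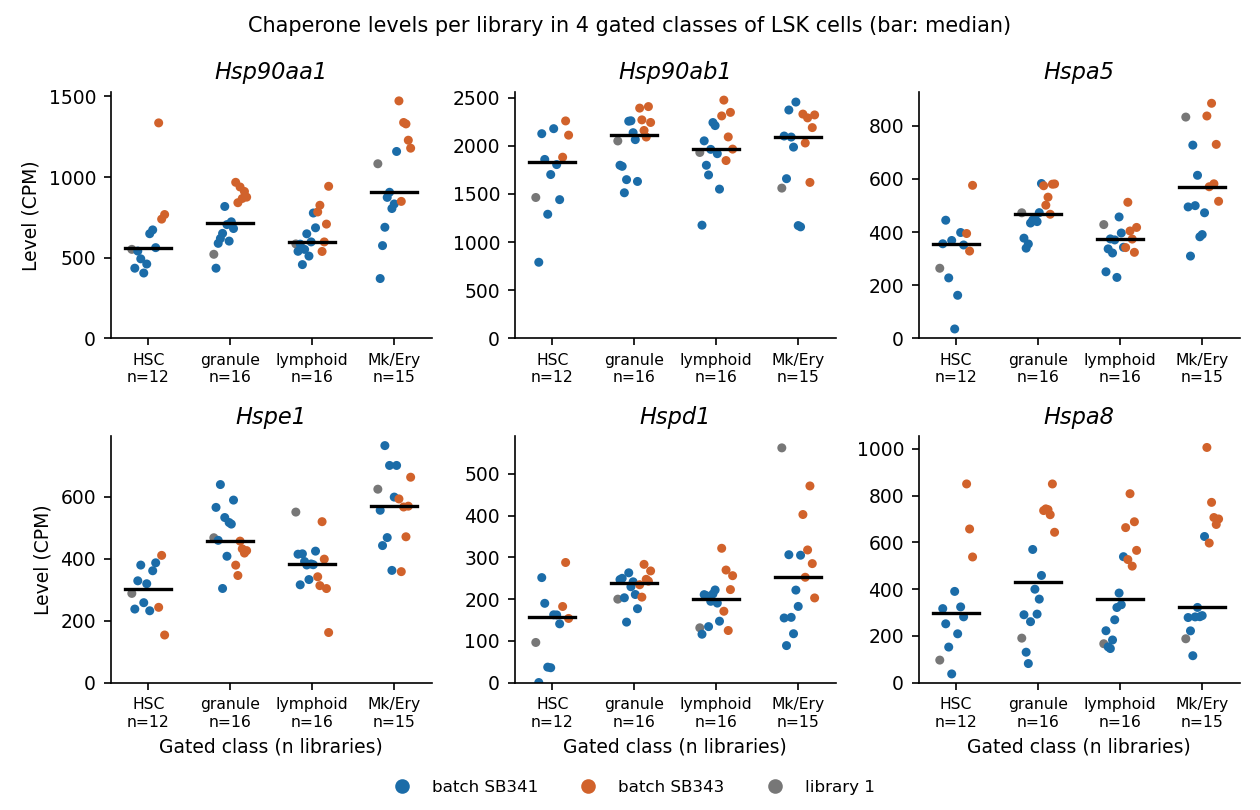
Level (CPM, linear axes from 0) of 6 chaperone genes in the sums of each gated class, 1 point per library with at least 10 cells of the class, bars at the median. Medians of Hsp90aa1 (906 CPM), Hspa5 (571 CPM) and Hspe1 (570 CPM) are highest in megakaryocyte and erythroid-gated cells, and most points of batch SB343 lie above those of SB341 for Hspa8.

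By comparison, the members called were as follows. Between megakaryocyte and erythroid-gated and HSC-gated cells 4 of 8 were called, all higher in the former, where 12.2% of all genes were called and 4.49% were called higher. Against lymphoid-gated cells it was also 4 of 8, beside 24.9% called and 164 of 1491 genes called higher, and against granule-gated cells 3 of 8, all higher, beside 14.9% and 5.90%. Between granule-gated and HSC-gated cells only Hspe1 was called, 1 of 8, beside 5.97% called and 2.55% called higher. Between lymphoid-gated and granule-gated cells only Hspa5 was called, 1 of 8, beside 6.77% called and 3.15% called lower. Between lymphoid-gated and HSC-gated cells 0 of 8 passed edgeR's quasi-likelihood test, beside 5.03%, with 0 at an unadjusted p under 0.05 and 0 in DESeq2. The median log2 fold change of the 8 members was 0.35, 0.33 and 0.28 for megakaryocyte and erythroid-gated cells against HSC-gated, lymphoid-gated and granule-gated cells, and that of all genes 0.02, 0.01 and 0.02. Each class enters 3 of the 6 comparisons, so these are not independent of each other.

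**Figure D4:**
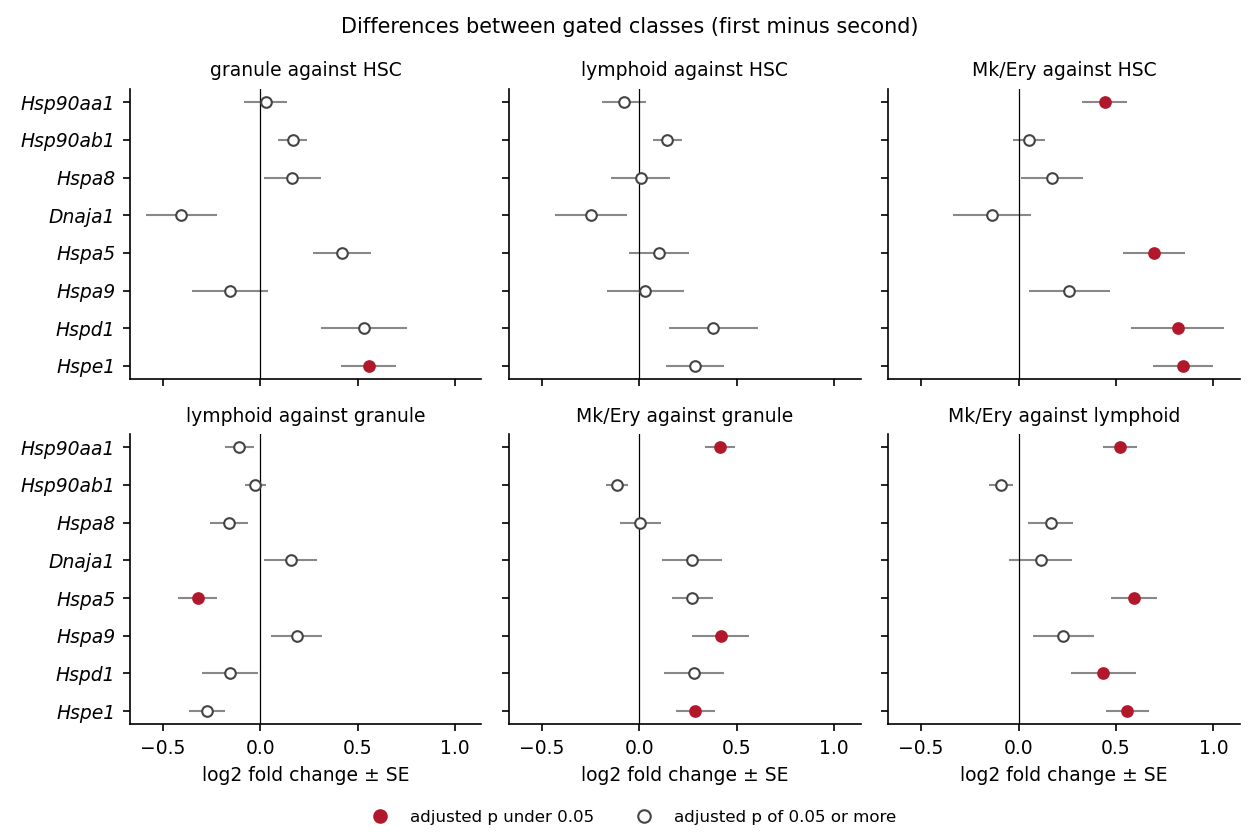
Log2 fold change between gated classes (edgeR, with its SE as error bars) for the 8 members tested, 1 panel per comparison, filled where the adjusted p was under 0.05. In the 3 panels of megakaryocyte and erythroid-gated cells all filled points lie above 0, and none is filled for lymphoid-gated against HSC-gated cells.

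Hsp90ab1, Hspa8 and Dnaja1 did not pass between any classes with the gate of 2 marker genes and the filter on low counts. Hsp90ab1 had medians of 1832, 2114, 1965 and 2091 CPM in HSC-gated, granule-gated, lymphoid-gated and megakaryocyte and erythroid-gated cells, and its fold changes lay between -0.11 and 0.17 with SEs of 0.05 to 0.08. With a gate of 1 marker gene Hsp90ab1 was called higher in granule-gated than in HSC-gated cells (0.18, adjusted p = 0.0202, edgeR) and lower in megakaryocyte and erythroid-gated than in granule-gated cells (-0.15, adjusted p = 0.034, edgeR). Without the filter it was called in 4 comparisons, by -0.44 to 0.63, or -0.14 to 0.17 relative to the median gene. The difference between the isoforms was not tested. The Hspa8 row had medians of 299, 429, 358 and 321 CPM, with fold changes of -0.16 to 0.17. With copies added its medians were 1147, 1248, 1239 and 1354 CPM and no fold change passed, the largest being 0.24 (adjusted p = 0.0538, edgeR) in megakaryocyte and erythroid-gated against HSC-gated cells. With the small RNA genes inside added as well, that difference was 0.21 (SE 0.07, adjusted p = 0.0214, edgeR) and passed. Dnaja1, the HSP40 partner, had medians of 248, 185, 208 and 187 CPM, and its lowest fold change, -0.41 in granule-gated against HSC-gated cells (SE 0.18, adjusted p = 0.201, edgeR), had the opposite sign to those of Hspe1 and Hspa5. In that comparison Dnaja1 was called with a gate of 1 marker gene, where 141 of 1761 genes were. The Hspa8 row was called there without the filter, where 536 of 20539 genes were called and the median gene moved by 0.46. Hspa14 and Hsph1, which were not tested, had HSC medians of 61.1 and 61.7 CPM from 2 and 2.5 UMIs per library, and 91.0 to 96.9 CPM in granule-gated and in megakaryocyte and erythroid-gated cells.

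The classes also differed in depth and cell cycle. The median cell held 1758 UMIs in the HSC class, 2446 in the granule, 2073 in the lymphoid and 2292 in the megakaryocyte and erythroid class. The summed level of 20 G2/M genes had medians of 3021, 3753, 4307 and 4532 CPM in these classes, and that of 20 G1/S genes 2397, 2897, 2488 and 3113 CPM. Both were highest where Hsp90aa1, Hspa5 and Hspe1 were highest. Among cells of low cell cycle share, gated on at least 1 marker gene, Hsp90aa1 was still called in megakaryocyte and erythroid-gated against HSC-gated (0.81, adjusted p = 0.00262, edgeR) and lymphoid-gated cells (0.56, adjusted p = 0.0196, edgeR). It was not called there against granule-gated cells (0.38, adjusted p = 0.151). Hspe1 and Hspa5 had 0.58 and 0.58 against HSC-gated cells with adjusted p = 0.127 and 0.171 (edgeR), in 9 libraries. The part of the cell cycle in the class differences was not tested beyond this.

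Lists of genes of more mature cells were summed in each class. The 7 erythroblast and platelet genes, of which Alas2 was at 0, summed to 0 to 2688 CPM in megakaryocyte and erythroid-gated cells with a median of 68.0 CPM, and to at most 79.1 CPM in the other 3 classes. The value of 2688 CPM came from library 7, where Hsp90aa1 stood at 906 CPM, Hspe1 at 701 CPM and Hspa5 at 614 CPM, beside class medians of 906, 570 and 571 CPM. The 10 mature neutrophil and macrophage genes, of which Ltf was at 0 and Lyz2 highest, had class medians of 156 to 218 CPM, lowest in megakaryocyte and erythroid-gated cells. The 6 B cell genes, 9 T and NK cell genes and 7 endothelial and stromal genes had class medians of 0 to 13.1 CPM, with Cd79a, Cd3e, Cd3d, Cdh5 and Lepr at 0. In single libraries these lists reached 39.55 CPM (B cell, HSC-gated), 57.73 CPM (T and NK cell, lymphoid-gated) and 118.7 CPM (endothelial and stromal, HSC-gated). Their part in the chaperone differences was not tested.

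Genes known for their induction by heat shock, with HSF1 and HSF2, ranged from 0 to 723 UMIs. Of 10 listed, Hspa1a and Hspa1b held 11 and 13 UMIs in all kept cells, Hspb8 1 and Hspb1 0, which allows up to 0.0582% of cells with a UMI by counting error alone. Dnajb1, an inducible HSP40, was the most abundant with 723 UMIs and 44.3 to 91.4 CPM over libraries, while Hsf1 itself had 341 UMIs. The whole list summed to 138 to 193 CPM, with a median of 163 CPM, beside a median of 220 CPM for Dnaja1 alone. None of its genes was abundant enough to be tested between classes. The immediate early genes, often raised by cell handling, summed to 91.8 to 437 CPM.

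Partner genes were followed through the same fits, with the shares of all genes called given above (24.9% in megakaryocyte and erythroid-gated against lymphoid-gated and 12.2% against HSC-gated cells). Of 10 HSP90 co-chaperones, led by Ptges3 (p23) with a median of 289 CPM, 4 were tested, and 1, Ptges3 itself, was called, higher by 0.38 in megakaryocyte and erythroid-gated than in lymphoid-gated cells (adjusted p = 0.0473, edgeR). That call was lost in 11 of 16 fits without a library. Of 12 HSP70 co-chaperones and relatives, led by St13 (188 CPM), 6 were tested and 2 called, both in this comparison, a share near that of all genes: the HSP40 gene Dnajc8 (0.64, adjusted p = 0.00567, edgeR) and the exchange factor gene Bag1 (0.56, adjusted p = 0.0205, not without library 6 or 11). Of 14 subunits of the TRiC chaperonin and of prefoldin, led by Cct2 (412 CPM), 9 were tested and only Pfdn5 was called. This prefoldin subunit was lower in megakaryocyte and erythroid-gated than in HSC-gated (-0.79, adjusted p = 0.00355, edgeR) and lymphoid-gated cells (-0.56, adjusted p = 0.00721, edgeR), against the direction of the called members. Of 10 mitochondrial folding genes, led by Grpel1 (85.2 CPM), none was abundant enough to be tested.

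Folding genes of the endoplasmic reticulum were called in 5 of the 6 comparisons, with 7 of 18 listed tested. Against HSC-gated cells 1 was called in megakaryocyte and erythroid-gated cells, beside 12.2% of all genes, and 2 in granule-gated cells, beside 5.97%. Between lymphoid-gated and granule-gated cells 1 was called, beside 6.77%. In megakaryocyte and erythroid-gated against granule-gated cells 2 were called higher and 1 lower, beside 14.9% called. In megakaryocyte and erythroid-gated against lymphoid-gated cells, where Hspa5 differed by 0.59, 4 were called higher, beside 164 of 1491 genes. They were the disulfide isomerase gene Pdia3 (0.70, adjusted p = 0.00395, edgeR), the lectin chaperone gene Canx (0.52, adjusted p = 0.00151, edgeR), Manf (0.50, adjusted p = 0.0448) and Calr (0.29, adjusted p = 0.0443), the last 2 lost in 11 of 16 fits without a library each. Against HSC-gated cells Canx was higher by 0.56 (adjusted p = 0.024, edgeR, not without library 1, 7 or 15). Calr, which encodes the calcium-binding chaperone calreticulin and led the list with a median of 664 CPM, was highest in granule-gated cells instead. It was higher there than in HSC-gated cells by 0.66 (SE 0.13, adjusted p = 8.95e-05, edgeR) in 11 of 12 libraries. It was lower in lymphoid-gated (-0.69, SE 0.09, adjusted p = 1.63e-09, edgeR) and in megakaryocyte and erythroid-gated than in granule-gated cells (-0.40, SE 0.10, adjusted p = 0.001, edgeR), each without exception when a library was left out. The disulfide isomerase gene P4hb was higher in granule-gated than in HSC-gated cells by 0.57 (adjusted p = 0.049, edgeR), lost in 10 of 16 fits without a library. In megakaryocyte and erythroid-gated against granule-gated cells, Canx had 0.33 (adjusted p = 0.0476, lost in 11 of 16 such fits) and the stress transcription factor gene Atf4 0.61 (adjusted p = 0.018, edgeR, not without library 11 or 14). The sum of the list had class medians of 1806, 2633, 1948 and 2857 CPM in the order HSC, granule, lymphoid, megakaryocyte and erythroid, the same order of classes as Hspa5.

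Whether a class difference depended on the batch was tested with interaction terms. Of 48 such terms, 6 for each of the 8 members, 0 passed in edgeR's quasi-likelihood test (smallest adjusted p = 0.768) and 2 had an unadjusted p under 0.05. With 3 libraries of SB343 in the HSC class, these terms have wide errors, and a missed threshold does not show that the batches act alike.

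Across the 59 sums of library and class, with each library's mean removed, the genes whose levels ran most like each member were found among 1555 genes. The closest to Hsp90aa1 was Atp5g1, a subunit gene of the mitochondrial ATP synthase (Pearson r = 0.67), followed by Pa2g4 (0.64) and Hdgf (0.59). Hspa5 was closest to Idh3a (0.71) and Atp5g1 (0.70), Hspd1 to Hnrnpab (0.72) and Adsl (0.67), and Hspe1 to Canx (0.61) and Galnt1 (0.60). Hsp90ab1 was closest to Magoh (0.59), the Hspa8 row to the cyclin gene Ccna2 (0.62), Hspa9 to H2-D1 (0.59) and Dnaja1 to Gbp7 (0.53). Neither the other HSP90 isoform nor the chaperonin partner could appear here, since only genes other than members were searched. These sums share libraries and depth, so the values are descriptions, and no p is given.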

How the data were processed

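MARS-seq, a plate method that reads the 3′ ends of mRNAs with UMIs, was applied to sorted LSK cells, per the labels' protocols. The authors deposited counts of UMIs per gene and well, not normalized, for 16 libraries of 384 wells, and a well table with other values (cells per well and sequencing batch) for 15 of them. The submitters' processing notes name bcl2fastq 2.15.0.4 and build mm10. Aligner, annotation and use of strand: not given in the sources used here.

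All totals leave out the 92 spike-in rows. A well was kept as a cell with at least 500 UMIs, under 20% mitochondrial UMIs and no entry as empty; the well table lists at most 1 cell per well, so no doublet caller was run, and library 1 was kept without such an entry. Levels are CPM of the kept cells' summed UMIs. Class sums of at least 10 cells per library were tested with edgeR 4.0.16 (R 4.3.3) by its quasi-likelihood F test. TMM factors and filterByExpr were used, with the library as a block and all 4 classes in 1 fit, and p-values were adjusted over all tested genes (Benjamini-Hochberg, 0.05). The 32 marker genes were not tested. Sums of 1 library share a plate, which is what pairs them. Batches were compared on library sums in the same way without a block, a comparison added after seeing the data. Copies are transcripts of GENCODE vM21 that match the last 400 bases of a member with at least 90% identity over at least 100 bases in BLAST+ 2.17.0. Promoter windows came from RefSeq (GRCm38.p6). The fits were run on simulated data with 200 changed genes and the classes set in advance. Such data cannot show the effect of placing cells by their own expression. Other work used Python 3.11.15 with numpy 2.4.6, scipy 1.17.1, pandas 2.3.3 and matplotlib 3.10.9, with seed 20240131 for thinning.

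The members and gene lists were chosen with earlier results of these data known. Named were all members, called genes of the 6 chaperone and co-chaperone lists (at most 6 per comparison by adjusted p), the most abundant gene of each list, and genes most like each member by Pearson r of log2(CPM + 10) among those with at least 100 CPM. Alternatives were RLE factors, DESeq2 1.42.0, no filter on low counts, other gates and UMI minimums, thinned cells, cells of low cell cycle share, single batches and each library left out. No correction of multiplicity was made over the 6 class comparisons. Counting intervals and floors cover counting error only.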

Additional observations from a re-analysis of the deposited data

How the results depend on the processing

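The class comparisons were recomputed under alternatives as 1289 values, of which 1182 kept direction and side of the threshold, 80 lost and 26 gained a call, and 1 reversed. The number of members called moved by over 1.5 times as follows, with smaller moves for megakaryocyte and erythroid-gated cells added. For granule-gated against HSC-gated cells (1) it was 6 without the filter on low counts, where 536 of 20539 genes were called and the median gene moved by 0.46. With a gate of 1 marker gene it was 3, where 141 of 1761 genes were called. The number was 0 with cells of low cell cycle share (also at a gate of 1), with cells thinned to 500 UMIs, and within SB341 or SB343. In each comparison, thinning after gating left only 2 members to test, and low cell cycle share at a gate of 1 left 6. Thinning before gating left 1. A call missing in these settings can therefore be that of a gene not tested. For lymphoid-gated against HSC-gated cells (0) it was 2 without the filter, where 395 of 20539 genes were called and the median gene moved by 0.33. For megakaryocyte and erythroid-gated against HSC-gated cells (4) it was 0 with thinned cells, where 2 members were tested, 1 with low cell cycle share, 1 within SB341 and 0 within SB343. For lymphoid-gated against granule-gated cells (1) it was 0 with DESeq2, with a gate of 1, when thinned before or after gating, with low cell cycle share at either gate, and within each batch, and with a gate of 3 the 1 called was Hspe1, not Hspa5. For megakaryocyte and erythroid-gated against granule-gated cells (3) it was 4 with RLE factors, DESeq2 or a gate of 1, 1 without the filter (Hsp90ab1, none of the 3), 1 with a gate of 3, with 1000 UMIs per cell, with thinned cells and within SB343 (Hsp90aa1), and 0 with low cell cycle share and within SB341. Against lymphoid-gated cells (4) it was 3 with RLE factors, a gate of 1, 1000 UMIs or within SB343, 3 without the filter (Hsp90aa1, Hspa5 and Hsp90ab1), 1 with thinned cells, 1 with low cell cycle share and 2 within SB341. Leaving out each library gave 1 to 2, 0 to 0, 3 to 4, 0 to 2, 1 to 4 and 3 to 4 in this order, and 4 to 6 for the batches (5).

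The values that reversed direction were those of Hspe1 and Hspa8. Without the filter, Hspe1 in megakaryocyte and erythroid-gated against granule-gated cells had -0.036 (adjusted p = 0.978, edgeR); that setting moved the median gene by -0.30, relative to which Hspe1 had 0.27. Its shifts in the other comparisons were 0.46, 0.33, 0.14, -0.12 and -0.18 (granule and lymphoid against HSC, megakaryocyte and erythroid against HSC, lymphoid against granule, megakaryocyte and erythroid against lymphoid). Hspa8 between batches had -0.28 with copies and -0.33 with small RNA genes inside added. The cause was not tested. Of 190 batch values, 175 kept direction and side of the threshold, and all 40 alternatives of the library levels moved by less than the spread between libraries. Thinning after gating, low cell cycle share at a gate of 1, copies, small RNA genes and the batch comparison were chosen after seeing the data. Cells of low cell cycle share at the main gate gave no megakaryocyte and erythroid comparison, a gate of 3 only those of lymphoid-gated and of megakaryocyte and erythroid-gated against granule-gated cells, and thinning before gating only lymphoid-gated against granule-gated cells. Each class fit was paired, with the library as the block. Depth limits Hspa14 and Hsph1, and HSC-gated sums with a median of 28324 UMIs.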
